A study of Mus musculus with 10 samples.

Results

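The 10 matrix metalloproteinase (MMP) genes described here were taken by symbol from a table of 53167 genes: Mmp2, Mmp3, Mmp7, Mmp9, Mmp10, Mmp11, Mmp13, Mmp14, Mmp15 and Mmp19. All 10 were listed, and 9 had enough reads to be tested. They were measured by poly-A RNA sequencing in wild-type mouse primary mammary epithelial cells, cultured in DMEM with serum. The BGN group (5 libraries) received biglycan protein at 100 ng/mL, and the Control group (5 libraries) received none. Biglycan is a small proteoglycan of the extracellular matrix, and the study asked how it acts on epithelial migration. No duration of stimulation and no animal or culture of origin was given, so p-values reflect the variation among these libraries, which could be technical.

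MMPs are zinc-dependent proteases that cut proteins of the extracellular matrix and of the cell surface. They are made as inactive precursors, in which a cysteine of the propeptide occupies the catalytic zinc, and they are activated by cleavage and held in check by tissue inhibitors (TIMPs). In the mammary gland they are known for their part in ductal branching and in the remodelling of the gland after lactation. Transcript levels do not report protease activity.

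Libraries held 18292624 to 21820560 counts. Control replicate 5 stood apart, with 1.16% of its counts from mitochondrial genes. Control replicates 1 to 4 had 1.80%, 1.91%, 2.13% and 2.27%, and the BGN libraries had 2.14% to 2.26%. BGN replicate 5 was the extreme of principal component 1. Levels are given as CPM, counts corrected for the depth of each library. Summed markers of basal epithelium were at 5130 to 5380 CPM in BGN cells and 5050 to 6270 CPM in Control cells. Krt14 and Krt5 gave most of this sum (3633 and 1512 CPM on average). Trp63 averaged 208 CPM and Acta2 27.65 CPM, and Myh11 had 40 counts in all libraries together. Summed markers of luminal epithelium were at 4520 to 4810 CPM in BGN cells and 4750 to 5090 CPM in Control cells. The 10 fibroblast markers summed to 46.4 to 52.7 CPM in BGN cells and 40.6 to 59.8 CPM in Control cells, mostly from Pdgfra, and Dpt and Pi16 had 0 counts. Of 12 myeloid markers 10 were detected, with sums of 408 to 438 CPM in BGN cells and 403 to 469 CPM in Control cells. Cd14 gave nearly all of this, followed by Cd163 (17.3 CPM on average). S100a8, Cd68 and Csf1r averaged 3.24, 1.65 and 1.26 CPM. Ptprc, Itgam, Fcgr1, S100a9 and Lyz2 had only 2 to 25 counts each in all libraries together, and Adgre1 and Tyrobp had 0 counts. The endothelial sum of 8 detected markers was 18.1 to 22.3 CPM in BGN cells and 20.7 to 22.3 CPM in Control cells. Most of it came from Flt1 (15.1 CPM on average) and Pecam1 (5.3 CPM). Tie1, Emcn, Cdh5, Kdr, Tek and Vwf had only 1 to 67 counts each in all libraries together. The adipocyte sum was at most 1.13 CPM in BGN cells and 1.51 CPM in Control cells, and of 8 lymphocyte markers only Cd79a had any count. None of the 7 sums passed a two-sided exact permutation test of BGN against Control (adjusted p from 0.574 to 0.992). With so few libraries and adjustment over 7 sums, a single sum could not pass on its own, even with fully separated groups. The test therefore cannot show that composition was equal. The smallest unadjusted p of this test was 0.0873, for the luminal sum (mean of 4740 CPM in BGN cells and 4880 CPM in Control cells). In bulk RNA, fewer cells of a type and less RNA per cell cannot be told apart.

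Mmp13, Mmp3, Mmp10 and Mmp7 lie in a cluster of 10 MMP genes on chromosome 9 (RefSeq annotation, GRCm38.p6), while the other 6 genes are scattered. Start-site sequences were at hand for 7 of the 10 genes, and not for Mmp2, Mmp9 and Mmp19. They are shown because the 4 described cluster genes carried a sequence that the other 3 matched genes lacked. The AP-1 element, to which Fos and Jun proteins bind, was searched as TGAGTCA or TGACTCA, each the reverse complement of the other, over the 300 bases around the annotated start. It was present at all 4 cluster genes and at none of Mmp11, Mmp14 and Mmp15, and 5.2% of 32851 mouse start-site windows held it. A TATA box, searched as TATAAA on the gene's strand, was likewise present at the 4 cluster genes and absent at the other 3, against 8.32% of all windows, and 0.624% of all windows held both. Such a match is a description of the letters and not evidence of binding. The stretches below run from 120 bases before to 20 after the annotated start, from RefSeq on GRCm38.p6, all on the plus strand, with the AP-1 and TATA letters in capitals. They span chr9:7272394-7272533 (Mmp13), chr9:7445702-7445841 (Mmp3), chr9:7502222-7502361 (Mmp10), chr9:7691970-7692109 (the first of 2 annotated starts of Mmp7) and chr14:54431478-54431617 (Mmp14). The second start of Mmp7 has no AP-1 match and no TATA match on the gene's strand.
Mmp13: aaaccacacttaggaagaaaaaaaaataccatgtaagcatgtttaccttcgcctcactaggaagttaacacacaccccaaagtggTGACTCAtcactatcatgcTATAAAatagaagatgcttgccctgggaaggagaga
Mmp3: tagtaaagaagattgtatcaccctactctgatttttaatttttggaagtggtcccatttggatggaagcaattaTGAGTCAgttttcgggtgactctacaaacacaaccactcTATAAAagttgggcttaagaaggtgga
Mmp10: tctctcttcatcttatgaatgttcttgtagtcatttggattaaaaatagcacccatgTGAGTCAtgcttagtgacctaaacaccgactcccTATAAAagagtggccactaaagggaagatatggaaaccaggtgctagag
Mmp7: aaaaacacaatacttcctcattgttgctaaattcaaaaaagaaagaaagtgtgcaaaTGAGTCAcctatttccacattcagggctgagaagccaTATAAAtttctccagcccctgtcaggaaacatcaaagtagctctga
Mmp14: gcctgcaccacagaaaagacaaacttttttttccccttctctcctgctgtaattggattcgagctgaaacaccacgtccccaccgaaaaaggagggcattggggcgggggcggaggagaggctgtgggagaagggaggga

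Mmp14 had the highest level of the 10 genes in every library. To compare genes, CPM were divided by the length of the longest coding transcript in kb. On this scale Mmp14 reached 163.2 ± 3.52 CPM per kb (SD, 10 libraries) and made up 79.8 ± 0.512% of the summed level of the 10 genes in BGN and 80.3 ± 0.964% in Control (SD, n = 5 each, as for all group values). It encodes MT1-MMP, a membrane-anchored collagenase that activates the precursor of MMP2. Mmp15, which encodes another membrane-type MMP, followed at 15.7 ± 1.29 CPM per kb, 10.4-fold lower than Mmp14. Mmp13 was at 10.2 ± 1.38 and Mmp11 at 9.39 ± 0.841 CPM per kb, and the ranges of these neighbours overlapped. Mmp3 (2.61 ± 0.607 CPM per kb) and Mmp2 (1.87 ± 0.399 CPM per kb) formed the next pair, again with overlapping ranges. Mmp19 (0.362), Mmp10 (0.314), Mmp9 (0.200) and Mmp7 (0.143 CPM per kb) were the lowest, and each overlapped the next in that order.

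**Figure D1:**
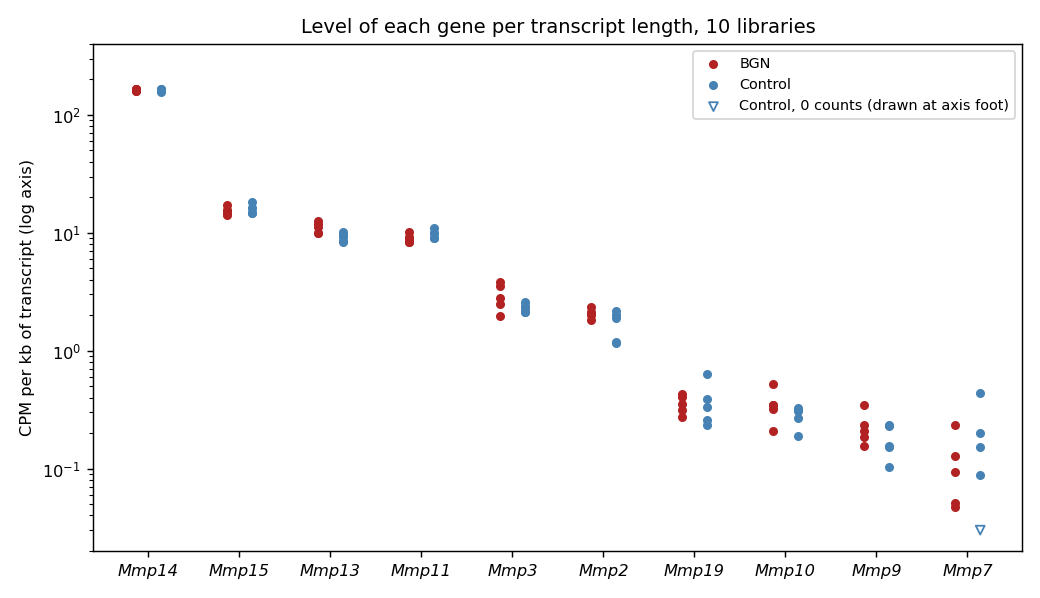
CPM per kb of transcript (log axis) for each of the 10 genes, ordered by mean, with 1 point per library (BGN red, Control blue, and an open triangle for 0 counts). Mmp14 lies near 163 CPM per kb in every library, while the 4 lowest genes lie below 1.

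None of the 9 tested genes passed between BGN and Control (edgeR, threshold of 0.05 on the adjusted p, smallest adjusted p = 0.945), and over all 14415 tested genes the share called was 0.0%. The count was likewise 0.0% by DESeq2 and by limma-voom, where 4.59% (662 genes) and 5.61% (808 genes) had an unadjusted p under 0.05. By edgeR that share was 4.81% (694 genes) over both directions. Before adjustment 2 of the 9 genes, Mmp13 and Mmp3, had p under 0.05 by edgeR, both higher in BGN, and 2.43% of all tested genes did so in that direction (351 genes). By limma-voom the 2 genes were Mmp13 and Mmp2 (unadjusted p = 0.00065 and 0.022), and Mmp3 had an unadjusted p of 0.0898. Estimates by edgeR lay above 0 for 6 of the 9 genes and below 0 for 3, where 48.0% of all tested genes lay above 0 and 52.0% below. For the 9, the median estimate was a log2 fold change (BGN over Control) of 0.27, beside -0.0040 for all tested genes. The median is the estimate of Mmp13 itself, and the family was chosen with earlier results of these data known. This median depended on the rarest genes and on single libraries. Over the 7 genes with at least 1 CPM in at least 5 libraries it was 0.0089, the estimate of Mmp14, and without BGN replicate 1 it was 0.10. Mmp9 and Mmp10 passed the low-count filter through 4 BGN libraries each and through 2 and 3 Control libraries.

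**Figure D2:**
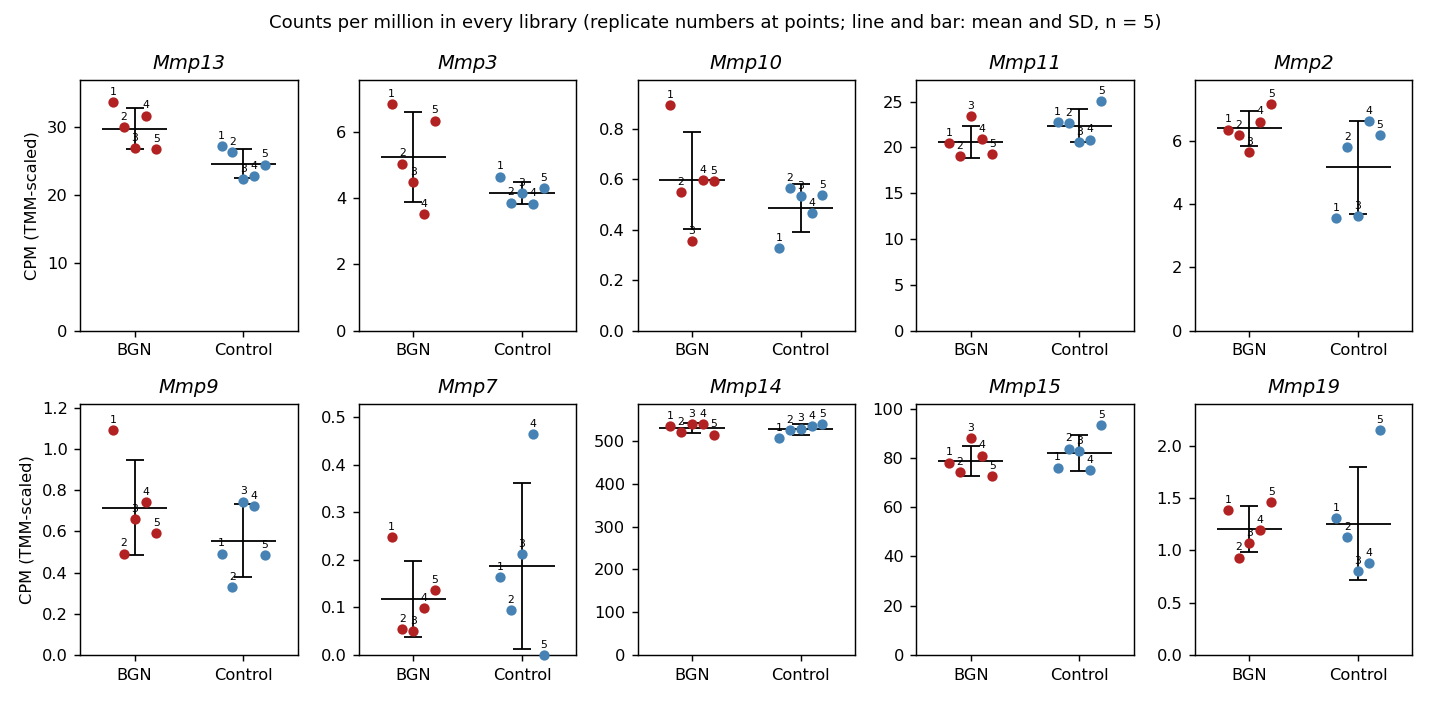
CPM of the 10 genes in each library, BGN left and Control right, with the replicate number at each point and lines for the mean and SD (n = 5 each). The groups overlap for every gene, and BGN replicate 1 is the highest BGN library for Mmp13, Mmp3, Mmp10, Mmp9 and Mmp7.

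Mmp13 encodes collagenase-3, which cuts fibrillar collagen and is a main interstitial collagenase of the mouse. It stood at 33.7, 29.9, 26.8, 31.7 and 26.8 CPM in BGN replicates 1 to 5, against 27.2, 26.3, 22.3, 22.7 and 24.5 CPM in Control replicates 1 to 5. The groups overlapped: 3 BGN libraries lay above every Control library, and the remaining 2 lay just below Control replicate 1. The mean was 29.8 ± 3.02 CPM in BGN cells and 24.6 ± 2.16 CPM in Control cells, a 1.21-fold difference with a 95% interval from 1.09 to 1.35. The log2 fold change was 0.27 ± 0.074 (SE), with an adjusted p of 0.945 by edgeR. Its unadjusted p of 0.00120 by edgeR was the 7th smallest of all tested genes, which was known when the family was chosen. Without each library in turn the estimate lay between 0.23 (without BGN replicate 1) and 0.31.

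The stromelysins MMP3 and MMP10 degrade many non-fibrillar matrix proteins and can activate other MMP precursors. Mmp3 was at 6.84, 5.04, 4.47, 3.52 and 6.34 CPM in BGN cells, against 4.64, 3.86, 4.15, 3.83 and 4.30 CPM in Control cells. BGN libraries spread widely around the narrow Control range, with replicates 1 and 5 high and replicate 4 below all Control libraries. The mean was 5.24 ± 1.36 CPM in BGN cells and 4.16 ± 0.337 CPM in Control cells, a log2 fold change of 0.34 ± 0.15 (SE; adjusted p = 0.945 by edgeR). The estimate was 0.22 without BGN replicate 1. Mmp10 was close to the detection limit, with 18, 10, 7, 12 and 13 counts in BGN and 6, 12, 10, 9 and 10 counts in Control. Its groups overlapped, and the log2 fold change of 0.29 had a 95% interval from -0.37 to 0.96 and lay between 0.10 (without BGN replicate 1) and 0.43 without single libraries. Of all 50-base stretches of the Mmp3 transcript 8.39% also occurred in another annotated transcript, chiefly that of Mmp10, so a small part of their reads cannot be assigned.

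Mmp11, which encodes stromelysin-3, an MMP activated by furin inside the cell, had an estimate below 0. It was at 20.4, 19.0, 23.4, 20.9 and 19.2 CPM in BGN cells, against 22.8, 22.7, 20.5, 20.9 and 25.0 CPM in Control cells. The highest library was Control replicate 5, and the groups overlapped. The mean was 20.6 ± 1.76 CPM in BGN cells and 22.4 ± 1.81 CPM in Control cells, a log2 fold change of -0.12 ± 0.073 (SE; adjusted p = 0.945 by edgeR), and -0.076 without Control replicate 5. On the opposite strand, Mmp11 overlaps Chchd10, Mmp19 overlaps Tmem198b and Gm47093, and Mmp7 overlaps AV064505. Reads from these overlaps may not be separable.

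The gelatinases MMP2 and MMP9 degrade denatured collagen and the type IV collagen of basement membranes. Mmp2 was at 6.35, 6.19, 5.64, 6.60 and 7.16 CPM in BGN cells, against 3.55, 5.79, 3.62, 6.62 and 6.18 CPM in Control cells. Control libraries split, with replicates 1 and 3 well below all others and the remaining 3 within the BGN range. The mean was 6.39 ± 0.555 CPM in BGN cells and 5.15 ± 1.46 CPM in Control cells, a log2 fold change of 0.31 ± 0.15 (SE; adjusted p = 0.945 by edgeR), and 0.20 without Control replicate 1. The fibroblast marker sum of Control replicates 1 and 3 was 45.0 and 41.6 CPM, against 40.6, 46.5 and 59.8 CPM in Control replicates 2, 4 and 5. This sum came mostly from Pdgfra (38.7 CPM on average over all libraries). Col1a1 and Dcn averaged 4.42 and 2.63 CPM. Lum, Fap, Col1a2, Col3a1 and Pdgfrb had only 4 to 119 counts each in all libraries together. The part of fibroblasts in Mmp2 was not tested. Mmp9 had 22, 9, 13, 15 and 13 counts in BGN, and 9, 7, 14, 14 and 9 counts in Control. Only BGN replicate 1 lay above the Control libraries, and the log2 fold change of 0.38 (95% interval -0.28 to 1.03) was 0.17 without it and reached 0.50 without Control replicate 3.

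Mmp14 and Mmp15 were the most precisely measured genes, and their estimates lay close to 0. Mmp14 was at 535, 521, 539, 539 and 515 CPM in BGN cells, against 506, 525, 529, 535 and 539 CPM in Control cells. The libraries of both groups were interleaved. The mean was 530 ± 11.2 CPM in BGN cells and 527 ± 12.7 CPM in Control cells, and the 95% interval of the fold change ran from 0.954 to 1.06 (adjusted p = 0.993 by edgeR). Its log2 estimate of 0.0079 turned to -0.0049 without Control replicate 1. Mmp15 was at 78.1, 74.2, 88.0, 80.9 and 72.6 CPM in BGN cells, against 76.1, 83.8, 82.8, 75.0 and 93.3 CPM in Control cells. The interval of its fold change ran from 0.878 to 1.05 (log2 fold change -0.062, adjusted p = 0.972 by edgeR), and the highest library was again Control replicate 5. The estimate was -0.013 without that library, and 0.017 without both replicates 5.

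Mmp19, which encodes a secreted MMP that acts on basement membrane proteins, had 28, 17, 21, 24 and 32 counts in BGN, and 24, 24, 15, 17 and 40 counts in Control. Control replicate 5 held the highest value, 2.15 CPM, and Control replicate 3 the lowest, 0.798 CPM. The log2 fold change of -0.042 had a 95% interval from -0.59 to 0.50 and turned to 0.23 without Control replicate 5. Mmp7 encodes matrilysin, a small MMP without the hemopexin domain, typical of glandular epithelium. It did not pass the low-count filter, having 5, 1, 1, 2 and 3 counts in BGN and 3, 2, 4, 9 and 0 counts in Control. A count of 0 in Control replicate 5 allows up to 0.161 CPM (3 counts, counting error only). The libraries together held 12 counts in BGN and 18 in Control, and the groups overlapped. Tested without the filter, Mmp7 had a log2 fold change of -0.63 (adjusted p = 0.833 by edgeR).

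**Figure D3:**
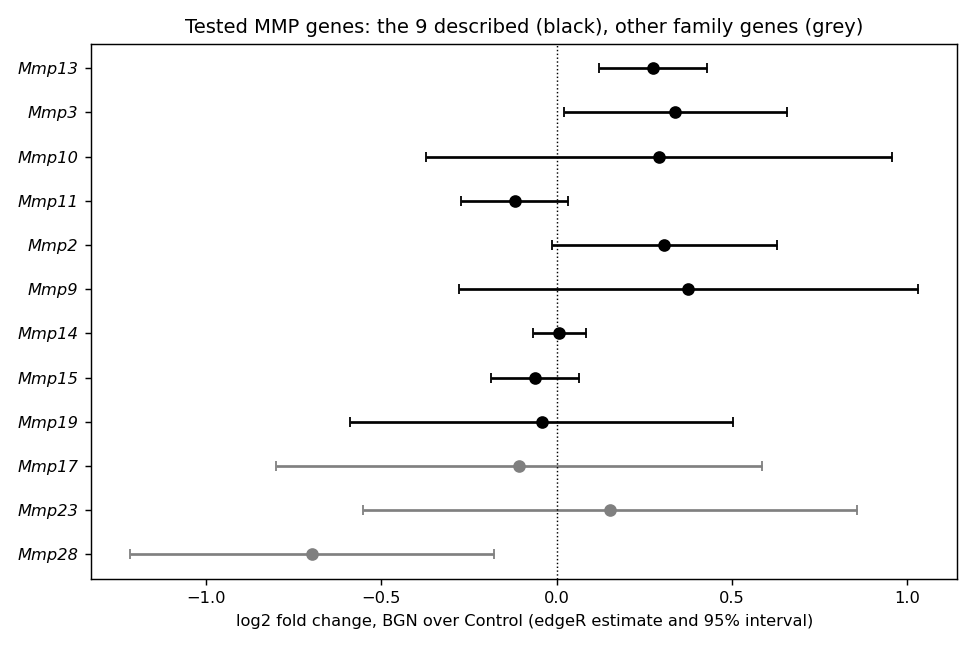
Log2 fold change, BGN over Control, with its 95% interval for the 9 tested genes (black) and 3 further tested family genes (grey). Intervals are narrow for Mmp14, Mmp15, Mmp11 and Mmp13, and wide for Mmp9, Mmp10 and Mmp19, which had 10.7 to 24.2 counts per library on average.

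**Figure D4:**
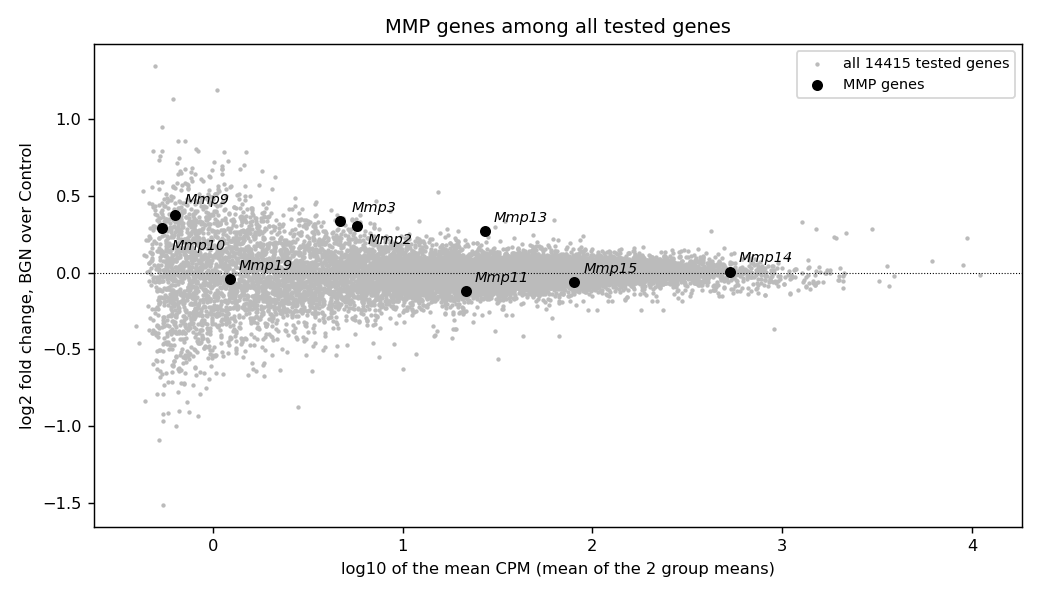
Log2 fold change, BGN over Control, against the log10 of the mean CPM for all 14415 tested genes (grey) and the 9 MMP genes (black, named). Mmp13 lies near the upper edge of genes of its abundance, and Mmp14, Mmp15 and Mmp11 lie near 0.

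Of 13 further family genes 4 (Mmp1a, Mmp20, Mmp21 and Mmp27) had 0 counts in all libraries, which allows at most 0.0153 CPM (3 counts over all libraries). A further 6 had 9 to 63 counts in all and were not tested. Of the 3 tested, Mmp28, which encodes the secreted MMP epilysin, had the smallest unadjusted p. It was at 0.496, 0.712, 0.712, 0.893 and 0.820 CPM in BGN cells, against 1.04, 1.13, 1.06, 1.60 and 1.07 CPM in Control cells. All 5 BGN libraries lay below all 5 Control libraries, as they did for 0.354% of all tested genes. The log2 fold change was -0.70 ± 0.25 (SE), with an adjusted p of 0.945 by edgeR, and rests on 187 counts in all. Mmp23 and Mmp17 had log2 fold changes of 0.15 and -0.11.

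No gene of the lists around the proteases passed the adjusted threshold (edgeR, smallest adjusted p = 0.945). Among 6 tested inhibitors, 2 had estimates above 0 and 4 below. Timp3, a matrix-bound inhibitor, was at 320 ± 21.8 CPM in BGN cells and 288 ± 13.7 CPM in Control cells (log2 fold change 0.15), and Timp4 at 1.81 ± 0.155 CPM in BGN cells and 1.36 ± 0.283 CPM in Control cells (0.42). Timp2, which takes part in the activation of MMP2 by MT1-MMP, was at 221 ± 8.14 CPM in BGN cells and 223 ± 7.30 CPM in Control cells. Activators of MMP precursors and their regulators split 6 above and 7 below 0. Hpn, a membrane serine protease gene, was at 23.8 ± 0.909 CPM in BGN cells and 27.0 ± 2.07 CPM in Control cells (log2 fold change -0.18). St14, which encodes matriptase, was at 305 ± 7.69 CPM in BGN cells and 324 ± 20.2 CPM in Control cells, and its inhibitor gene Spint2 at 392 ± 8.99 CPM in BGN cells and 409 ± 16.3 CPM in Control cells.

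Docking and inducing proteins had 7 of 11 estimates above 0. Cd44, a hyaluronan receptor that can hold MMP9 at the cell surface, had a log2 fold change of 0.11 and Itgav, an integrin alpha subunit gene, of 0.14. Bsg, which encodes the MMP inducer EMMPRIN, was at 1053 ± 269 CPM in BGN cells and 1151 ± 189 CPM in Control cells, and Itgb1, an integrin beta subunit gene, at 1092 ± 17.3 CPM in BGN cells and 1082 ± 12.2 CPM in Control cells. Transcription factors that act on MMP promoters, AP-1 genes among them, had 7 of 16 estimates above 0, and their median log2 fold change was -0.013. Runx1 was at 563 ± 23.0 CPM in BGN cells and 518 ± 25.1 CPM in Control cells, Runx2, a known activator of Mmp13 in bone, at 42.7 ± 2.38 CPM in BGN cells and 39.5 ± 1.67 CPM in Control cells, and Ets2 at 293 ± 14.9 CPM in BGN cells and 291 ± 18.0 CPM in Control cells. Matrix substrates had 8 of 14 estimates above 0. Hspg2, the perlecan gene, had a log2 fold change of 0.16 and Bgn itself of 0.40. The abundant substrate genes Spp1 (osteopontin) and Sdc1 (syndecan-1) were at 0.082 and -0.056 on the same scale.

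**Figure D5:**
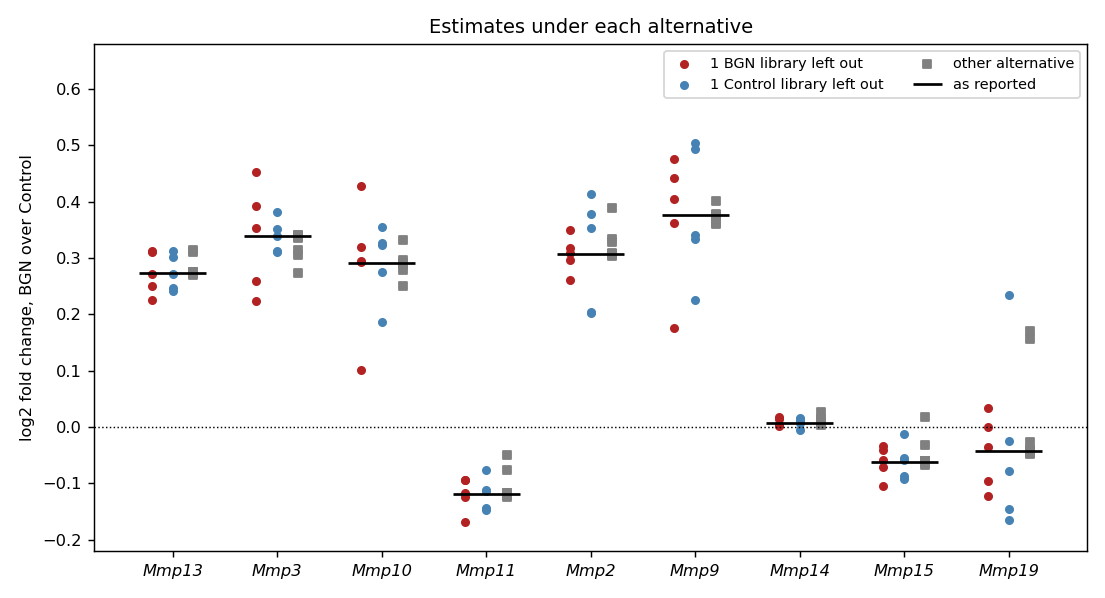
Log2 fold change, BGN over Control, of the 9 tested genes as reported (black line), without each BGN library (red), without each Control library (blue) and under the other alternatives (grey squares). Estimates for Mmp13, Mmp3, Mmp10, Mmp2 and Mmp9 stay above 0 and those for Mmp11 below 0, while Mmp14, Mmp15 and Mmp19 cross 0.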

How the data were processed

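Poly-A RNA of 10 samples was sequenced (NEBNext Ultra libraries, per the labels' protocols). The authors deposited unnormalized whole-number counts for each gene symbol. Tools named in the submitters' processing notes are HISAT2 2.2.1, cutadapt 1.9.1, HTSeq, FastQC and DESeq2, with build GRCm39. For the annotation release and strand setting the sources used here give nothing, so reads of overlapping or antisense genes may be shared. Titles of the samples gave the group and replicate.

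Genes were kept by filterByExpr (about 10 counts in at least 5 libraries), given TMM factors and tested in R 4.3.3 with edgeR 4.0.16 (quasi-likelihood, robust), with treatment as the single term. P-values were Benjamini-Hochberg adjusted over 14415 genes, with calls under 0.05. SE and 95% intervals came from the F statistic. The biological coefficient of variation was 6.85%. The steps were also run on simulated data, and the outcome is not given here. CPM used TMM factors, except marker sums, which used library totals. Transcript lengths (GENCODE M21) and start-site sequences (RefSeq) are of build GRCm38 and were matched by symbol. Alternatives were other scalings and filters, DESeq2 1.42.0, limma-voom 3.58.1, no robust estimation, a replicate block and leaving out libraries. All pairs of libraries differed by more than sampling noise (chi-square per degree of freedom at least 2.43).

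The genes and lists were chosen with earlier results of these data known. Named were the 10 genes, in each other list the 2 of smallest p and the 2 of highest CPM, and, for genes with at least 50 counts on average, the 3 genes of most similar pattern.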

Additional observations from a re-analysis of the deposited data

How the results depend on the processing

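The number of MMP genes called was 0 under all 20 alternatives. Over all genes 0 were called, except without a filter on low counts, where 3 of 26531 passed, none of them among the 10 genes; the smallest adjusted p for Mmp13 over all alternatives was 0.134, in that setting. Estimates of Mmp13, Mmp3, Mmp10, Mmp2, Mmp9 and Mmp11 kept their sign in every alternative in which they were tested; the filter of at least 1 CPM in at least 5 libraries left out Mmp9 and Mmp10. Signs turned for Mmp14 without Control replicate 1 (-0.0049), for Mmp15 without both replicates 5 (0.017), and for Mmp19 with limma-voom (0.17), without both replicates 5 (0.16) and without single libraries (-0.16 to 0.23). Without single libraries Mmp14 lay between -0.0049 and 0.018. Why these estimates turned was not tested.

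The replicate numbers share no stated source. Deviations of same-numbered libraries correlated at -0.020 to 0.20 across genes, and 1 of 5 BGN libraries correlated best with its own number. With the replicate number as a block 0 genes were called (smallest adjusted p = 0.238), and the Mmp13 estimate was 0.27 (adjusted p = 0.536 by edgeR). Depth limits Mmp7, Mmp9, Mmp10 and Mmp19 most: the intervals of the last 3 were the widest of the 9 genes tested, and Mmp7 could be tested only without the filter.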

Other observations

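High values did not fall in the same libraries for all genes. BGN replicate 1 was the highest BGN library for 5 of the 10 genes (Mmp3, Mmp7, Mmp9, Mmp10 and Mmp13), and Control replicate 5 the highest Control library for 4 (Mmp11, Mmp14, Mmp15 and Mmp19). The 3 genes of most similar pattern over the 10 libraries were, for Mmp14, Dpyd, Cxcl12 and Gm37570 (Pearson r = 0.933, 0.911 and 0.910). For Mmp15 they were Hadha, Wdtc1 and Arhgef4 (0.964, 0.959 and 0.952), and for Mmp11 Dedd2, Nectin4 and Mrm1 (0.948, 0.942 and 0.929). For Mmp2 they were Kcns3, Cep97 and Slc35e3 (0.967, 0.959 and 0.944). For Mmp3 they were Gm6793, Rrad and Septin5 (0.919, 0.914 and 0.899), and for Mmp13 Gm37621, Siah1a and Gm4691 (0.904, 0.902 and 0.846). These are descriptions over 10 libraries that share their depth and composition: the best match of a gene with at least 50 counts had a median r of 0.943, so matches of this size are usual here.

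Among the untested neighbours in the chromosome 9 cluster, Mmp12, the macrophage elastase gene, had 36 counts in all BGN libraries together and 27 in Control. Mmp8, the neutrophil collagenase gene, had 18 counts in BGN and 8 in Control, and Mmp1b 5 in BGN and 11 in Control.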
